A study of Mus musculus with 6 samples.

Results

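Pdgfra myofibroblasts of the embryonic lung were taken as the cells of 2 whole-lung libraries at E18.5 that held Pdgfra, Acta2 and Tagln RNA together and none of the genes that mark alveolar fibroblasts, pericytes, endothelium, epithelium or leukocytes. On expected counts, which are unique molecular identifier (UMI) counts after the authors' removal of free RNA with SoupX, a member needed at least 1 of Pdgfra, 10 of Acta2 and 3 of Tagln. It needed 0 of Tcf21, of Cox4i2 plus Higd1b, of Pecam1 plus Cdh5, of Epcam and of Ptprc, at least 700 genes, and 0.5% to 10% mitochondrial UMIs. This gave 977 members among 16515 cells that passed the gene and mitochondrial limits, out of 18683 barcodes in both whole-lung libraries and 63659 barcodes in all 6 libraries of the series. The libraries were made from mouse lungs at embryonic day 18.5 by 10x 3′ chemistry and held 103857395 and 85648519 UMIs, 1 labelled Cxcl12 homozygous null (Cxcl12DsRed/DsRed) and 1 labelled Cxcl12 heterozygous control (Cxcl12DsRed/+). Both genotypes carry DsRed placed into Cxcl12, so no lung without the reporter allele was measured. The study describes cells of 2 lungs for each genotype. The labels name no treatment. They describe sorting by CD31 and TdTomato for every library of the series, while the titles and the study's results give these 2 as whole lung. The study's methods describe the sorting without setting these 2 apart. Each genotype had 1 library, so no test between genotypes was possible and every interval below covers counting error only.

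The labels of these libraries could not be taken at face value. Cxcl12, the targeted gene (chr6:117168535-117181367, GRCm38), was at 27.2 CPM (counts per 1000000 summed UMIs) in the members of the library labelled null and at 0.40 CPM, or 1 UMI, in those of the library labelled control. In the endothelial-gated cells of the same libraries it was at 549.9 and 5.21 CPM. The names of the deposited data also give the genotypes the other way round. The libraries are therefore called the library labelled null and the library labelled control throughout, and no difference between them can be assigned to the loss of Cxcl12. In each pair of values below, the library labelled null comes first. The sex makeup of the pools differed as well. Xist, the RNA of the inactive X chromosome, was at 1039 and 0 CPM in the members, and Ddx3y and Eif2s3y, both on the Y chromosome, were at 25.7 and 92.8 CPM and at 27.2 and 74.4 CPM. Genotype, sex and library cannot be told apart in any of the comparisons between libraries.

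Pdgfra encodes the receptor for the A-chain ligand of platelet-derived growth factor, which the airway epithelium releases. In the late embryonic and newborn lung, Pdgfra-positive cells that also make smooth muscle actin lie around the forming ducts and at the tips of the ridges that divide the air sacs. They are known for contractile proteins and for making elastin, the core of the elastic fibre, and they receive Hedgehog, WNT, FGF and TGF-β signals from the epithelium and the surrounding mesenchyme. Vascular and airway smooth muscle share much of their contractile program, while alveolar fibroblasts, marked by the transcription factor Tcf21, hold lipid and support the epithelium.

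Because the cells were chosen by contractile genes, the promoters of such genes were read on both strands for the CArG box, the binding motif of serum response factor. Promoters were the 250 bases before each start in the RefSeq table for GRCm38.p6. The box was present in 482 of 32851 promoters, or 1.47%, and in 3 of 22 promoters of 19 genes on the contractile list, or 13.64%. The table gave no promoter for Tagln, Actg2 and Myh11. The 4 promoters below hold the box, shown in capitals, and bear on genes described below: Myl9 and Vcl from the contractile list, Fhl2, which differed between the libraries, and Actc1, which set the members apart from other contractile cells.
Myl9 promoter, chr2:156775214-156775463, plus strand: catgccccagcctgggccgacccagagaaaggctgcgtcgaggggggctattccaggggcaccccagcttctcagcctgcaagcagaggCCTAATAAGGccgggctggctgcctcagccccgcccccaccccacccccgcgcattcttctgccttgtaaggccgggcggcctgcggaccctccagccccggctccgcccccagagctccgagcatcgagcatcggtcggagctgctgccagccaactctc
Vcl promoter, chr14:20929148-20929397, plus strand: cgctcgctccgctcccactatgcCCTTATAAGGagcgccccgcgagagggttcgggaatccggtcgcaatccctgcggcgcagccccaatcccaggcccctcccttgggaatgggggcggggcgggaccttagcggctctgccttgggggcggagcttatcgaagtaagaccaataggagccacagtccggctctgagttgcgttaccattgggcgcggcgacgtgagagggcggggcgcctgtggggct
Fhl2 promoter, chr1:43163962-43164211, minus strand: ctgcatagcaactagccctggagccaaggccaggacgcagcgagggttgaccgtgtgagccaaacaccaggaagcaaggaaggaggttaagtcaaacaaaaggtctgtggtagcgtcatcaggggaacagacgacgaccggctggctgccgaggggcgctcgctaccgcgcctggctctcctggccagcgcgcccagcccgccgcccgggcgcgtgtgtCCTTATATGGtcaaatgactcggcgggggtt
Actc1 promoter, chr2:114052876-114053125, minus strand: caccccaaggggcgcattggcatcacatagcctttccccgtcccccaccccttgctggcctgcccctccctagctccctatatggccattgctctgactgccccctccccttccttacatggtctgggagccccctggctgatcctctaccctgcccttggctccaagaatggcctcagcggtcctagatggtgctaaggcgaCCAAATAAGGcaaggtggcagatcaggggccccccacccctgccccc
The box began 161 bases before the start of Myl9, 227 before that of Vcl, 31 before that of Fhl2 and 47 before that of Actc1. A second Fhl2 promoter, at chr1:43196762-43197011, held a box 96 bases before its start. Only the strict form was counted, CC and GG around a run of A and T letters as long as those shown. No mismatch was allowed, so near matches were not counted and a promoter without a match may still hold one. No exact match was found in 15 promoters of 11 myofibroblast marker genes, Acta2 among them, or in 21 promoters of 13 elastic fibre genes. None was found in 10 promoters of 10 Hedgehog genes. A match describes letters only, and these data do not show which factors bound there.

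The members numbered 647 of 9067 kept cells in the library labelled null, which is 7.14% (exact 95% binomial interval 6.61 to 7.69), and 330 of 7448 in the library labelled control, which is 4.43% (3.97 to 4.92). Their raw UMIs summed to 5580068 and 2506788, with medians per cell of 7873 and 6962 UMIs and 2895 and 2706.5 genes. No barcode of a member was found in the other whole-lung library, although 140 barcodes occurred in both. SoupX had removed 18.7% of the members' UMIs in the library labelled null and 41.4% in the library labelled control. Limits set on the adjusted values therefore acted unequally on the libraries. With the same limits on raw counts the shares were 5.79% and 4.23%, and on raw counts after each cell had been thinned to 3000 UMIs they were 2.81% and 1.39%. The share was higher in the library labelled null in all 3 forms. Fewer such cells and fewer cells past a limit on RNA cannot be told apart here.

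The genes of the rule are given as a description. The adjusted values of Pdgfra ran from 1.10 to 30.4 in the library labelled null, with a median of 6.72, and from 1.02 to 35.1 with a median of 6.36 in the library labelled control. Acta2, which encodes smooth muscle actin, ran from 10.0 to 198 with a median of 22.2, and from 10.1 to 59.4 with a median of 17.4. Tagln, the actin-binding transgelin, had medians of 19.3 and 13.8. Acta2 was the limit that alone kept out the most cells, 443 and 473 at medians of 4.37 and 3.54, while 73 and 52 members lay at 12 or below. The Pdgfra limit alone kept out 142 and 137 cells, and 54 and 25 members lay at 2 or below. Tcf21 alone kept out 62 and 12 cells, at medians of 17.6 and 19.8 and with the lowest values at 0.366 and 3.06. Cox4i2 plus Higd1b alone kept out 97 and 7 cells, at medians of 0.464 and 1.29 UMIs, so this limit also acted unequally on the libraries. No cell failed on Epcam alone.

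Of the 3 genes that define the label, Tgfbi was not used to choose cells. Tgfbi, a secreted matrix protein induced by TGF-β (chr13:56609523-56639562), was at 1909 CPM (95% Poisson interval 1872 to 1945) and 1055 CPM (1015 to 1096). It was at 35.5 and 37.9 CPM in Tcf21 fibroblasts, at 42.1 and 28.6 CPM in pericyte-gated cells and at 92.8 and 97.2 CPM in endothelial-gated cells. Contractile cells without Pdgfra held 1023 and 512 CPM, so Tgfbi was lower but present there. On Tgfbi the members thus stood far above fibroblasts, pericytes and endothelium, and less far above other contractile cells.

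Most other markers listed for these cells were abundant. Hhip, which binds and dampens Hedgehog ligands (chr8:79965851-80058006), was at 1608 CPM (95% Poisson interval 1575 to 1642) and 1943 CPM (1888 to 1998). Enpp2, which makes lysophosphatidic acid, was at 941 and 1410.0 CPM. Wnt5a, a ligand of non-canonical WNT signalling, was at 477 and 308 CPM, and Fgf18, an FGF ligand made by lung mesenchyme, at 439.8 and 296 CPM. Egfem1 was at 195 and 155 CPM, Cdh4, a cadherin, at 122 and 111 CPM, and Lgr6, a receptor for R-spondins, at 96.6 and 74.4 CPM. Some listed markers were low. Aspn, a small matrix proteoglycan, was at 15.8 and 9.2 CPM in the members against 555 and 546 CPM in contractile cells without Pdgfra and 239 and 86.4 CPM in Tcf21 fibroblasts. Stc1, a secreted glycoprotein, was at 22.7 and 64.4 CPM and Bmp5 at 31.3 and 43.2 CPM. Without Pdgfra, Acta2 and Tagln, whose levels the gates set, 15 listed markers were compared with Tcf21 fibroblasts, of which 14 were at least 1 log2 unit higher in both libraries and Aspn was lower, where 10.9% and 7.27% of all genes compared were higher and lower. Against contractile cells without Pdgfra, 3 of these 15 were higher, Stc1, Enpp2 and Egfem1, and 3 were lower, Aspn, Actg2 and Mustn1, a small nuclear protein of muscle, beside 3.63% and 3.91% of all genes. Mustn1 was at 188 and 203 CPM against 475 and 591 CPM. Nrep was at 845 and 968 CPM, P2ry14, a receptor for UDP-sugars, at 212 and 167 CPM, and Loxl2, which crosslinks collagen, at 115 and 95.2 CPM. Aspn went against the list, and it is among the genes used to estimate free RNA.

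**Figure D1:**
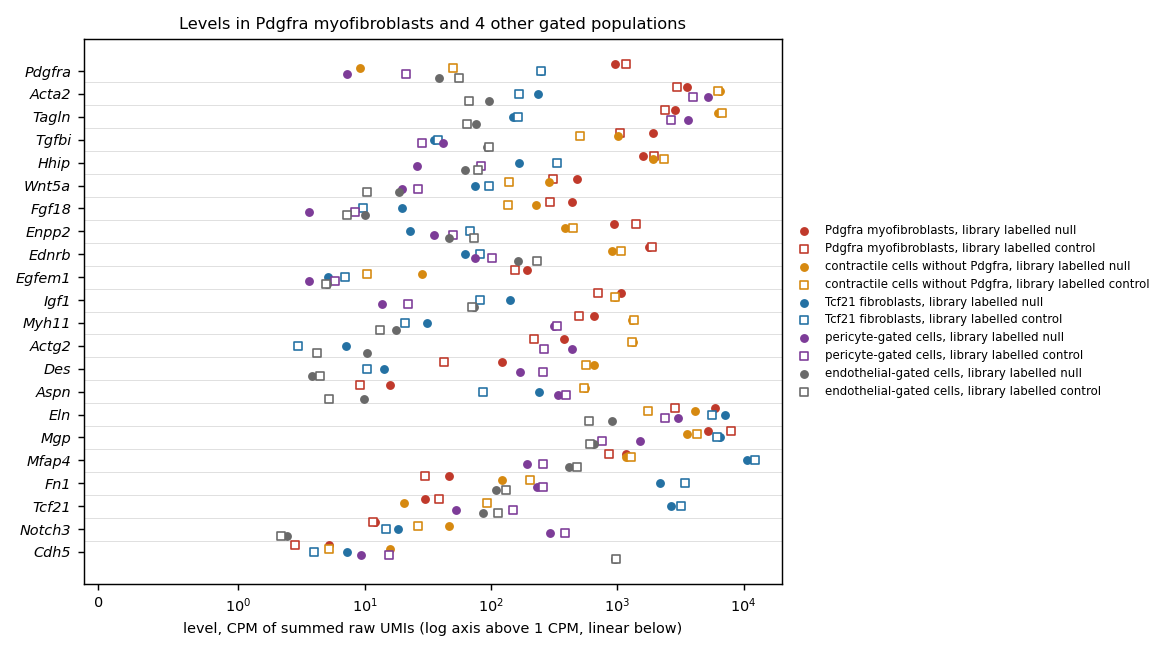
Levels of 22 genes in Pdgfra myofibroblasts and 4 other gated populations, in CPM of summed raw UMIs on an axis that is logarithmic above 1 CPM. Filled circles are the library labelled null and open squares the library labelled control. Tgfbi, Enpp2, Ednrb and Egfem1 lay highest in the myofibroblasts in both libraries, while Acta2, Tagln, Myh11 and Actg2 lay higher in contractile cells without Pdgfra.

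Most defining markers of other cell types were low. The 5 endothelial markers summed to 196 and 219.7 CPM, of which Ramp2 gave 160.0 and 197 CPM, Pecam1 7.92 and 2.0 CPM and Cdh5 5.22 and 2.8 CPM. Ramp2, part of a receptor for adrenomedullin, was above the 37.7 and 34.8 CPM of contractile cells without Pdgfra and below the 2184 and 2292 CPM of endothelial-gated cells. The 5 epithelial markers summed to 68.4 and 90.8 CPM, nearly all of it Sftpc at 63.9 and 86 CPM, with Epcam at 1.26 and 0.80 CPM. The 5 immune markers summed to 58.7 and 75.6 CPM, with Ptprc at 0.90 and 1.6 CPM. Mesothelial, chondrocyte and Schwann markers each summed to under 5 CPM in both libraries, since the sums were 1.98 and 2.0, 3.06 and 4.8, and 4.5 and 3.2 CPM, and Upk3b, Lrrn4, Matn1 and Sox10 were at 0. A count of 0 allows up to 0.54 and 1.2 CPM. The 8 alveolar fibroblast markers summed to 195 and 182 CPM, of which Tcf21 gave 30.05 and 38.8 CPM in raw counts although its adjusted value was 0 by the rule. The 6 adventitial fibroblast markers summed to 89.1 and 96.4 CPM. The 7 pericyte markers summed to 601 and 475 CPM, mostly Gucy1a1, a subunit of guanylate cyclase, at 231 and 131 CPM and Kcnk3, a potassium channel, at 224 and 212 CPM, with Cox4i2 at 4.14 and 17.6 CPM. These sums are of raw counts. In adjusted values they were 48.3 and 27.3 CPM for endothelial, 0 and 0 for epithelial and 17.3 and 44.5 CPM for immune markers. They were 62.6 and 20.7 CPM for alveolar fibroblast, 47.9 and 71.2 CPM for adventitial fibroblast and 663 and 614.5 CPM for pericyte markers. Pericyte marker sums were thus not low. Haemoglobin was high in the library labelled null, as its 4 genes summed to 1620.1 and 109 CPM in raw counts. In adjusted values these haemoglobin sums were 1447 and 0 CPM. Haemoglobin RNA came from few cells, 5 and 1 members with over 1% haemoglobin UMIs. Hbb-bs was at 1017 and 38 CPM with all members and at 16.03 and 6.02 CPM without those cells.

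The members were set beside other populations gated with the same exclusions. Contractile cells without Pdgfra passed the rule with Pdgfra at 0 (105 and 121 cells). Tcf21 fibroblasts had Tcf21 of at least 1 and Acta2 under 10 (1934 and 1602 cells). Pericyte-gated cells had Cox4i2 plus Higd1b of at least 2, without Pdgfra and Tcf21 (122 and 154 cells). Ratios are log2 ratios of CPM with 0.5 CPM added, taken within each library, and a gene was called where the ratio reached 1 in size in the same direction in both libraries. A gene counted as compared where it reached 50 CPM in either population of either library. Since the gates chose the cells, these ratios describe the populations and have no test.

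Pdgfra myofibroblasts were first compared with contractile cells without Pdgfra. Of 3857 genes, 140 were higher (3.63%) and 151 lower (3.91%) in the myofibroblasts, and the median ratio over all these genes was 0.04 and 0.05. Notum, a secreted enzyme that inactivates WNT ligands, was at 123 and 134 CPM against 16 and 3.16 CPM. Egfem1 was at 195 and 155 CPM against 28.5 and 10.5 CPM, and Car2, a carbonic anhydrase, at 218 and 228 CPM against 25.1 and 33.7 CPM. Enpp2 was at 941 and 1410.0 CPM against 386 and 449.8 CPM. Each of these genes was higher in the myofibroblasts of both libraries. The other genes of the highest 10 ratios were Tmem204, Egflam, Sept4, Gm45768, Sult1a1, Plk2 and Gpx3. Hhip was not among them, since contractile cells without Pdgfra held 1928 and 2340.4 CPM.

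The genes with the lowest ratios had few or no UMIs in the myofibroblasts. Actc1, cardiac alpha actin, was at 4.14 and 8.4 CPM in the myofibroblasts and at 1326 and 1640.0 CPM in contractile cells without Pdgfra. Tnnt2, cardiac troponin T, had no UMI in the myofibroblasts of either library and 158 and 79 CPM in the other cells. Chrm2, a muscarinic acetylcholine receptor of airway muscle, was at 3.96 and 2.8 CPM against 225 and 285 CPM. Ogn, osteoglycin of the matrix, was at 8.46 and 12 CPM against 533 and 541 CPM. These 4 genes were far higher in contractile cells without Pdgfra in both libraries. Aspn, Timp4, Adam33, Cpxm2, Rgs4 and 9330158H04Rik completed the 10 genes that were lowest.

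Against Tcf21 fibroblasts, 414 of 3799 genes were higher (10.9%) and 276 lower (7.27%), with a median ratio over all genes of 0.25 and 0.26. When the ratios were centred on these medians, 322 genes were higher and 342 lower, so the balance of directions rested on the scaling. In the gene lists that follow, calls against these fibroblasts that centring ends are named or counted. The highest ratios were those of Actg2, enteric smooth muscle actin, at 379 and 221 CPM against 7.19 and 2.98 CPM, Lgr6 at 96.6 and 74.4 CPM against 2.3 and 1.61 CPM, and Cdh4 at 122 and 111 CPM against 2.99 and 2.98 CPM. Pdlim3, a PDZ and LIM protein of the actin cytoskeleton, was at 542 and 562 CPM against 9.03 and 18.1 CPM. Lmod1, Nxnl2, Greb1, Rgs6 and Tgfbi were also among the highest. The lowest were Slc36a2, Limch1, Inmt, Pid1, Spon1, Prkg2, Abca8a, Bmp3, Clec3b and Hsd11b1. Hsd11b1, which reactivates glucocorticoids, was at 2.16 and 2.8 CPM against 520.1 and 650.3 CPM. Without Tcf21, which the gates set, all 7 other alveolar fibroblast markers were lower in the myofibroblasts, and Limch1 was at 5.04 and 5.6 CPM against 969 and 1314 CPM.

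Against pericyte-gated cells, 461 of 3897 genes were higher (11.8%) and 295 lower (7.57%), with medians over all genes of 0.16 and 0.11. Agt, angiotensinogen, was at 591 and 785 CPM in the myofibroblasts and 4.36 and 15 CPM in pericyte-gated cells. Fmo2, a flavin monooxygenase of the lung, was at 1886 and 2011 CPM against 26.2 and 53.3 CPM, and Scara5, a ferritin receptor, at 346 and 367 CPM against 3.63 and 7.16 CPM. These were among the 10 highest ratios, with Gata5, Met, Foxq1, Smpx, Col6a4, Tgfbi and Pdlim3. Ebf1, a transcription factor of pericytes, was lower, at 2.7 and 2.0 CPM against 767 and 789.8 CPM. The pericyte gate also held cartilage RNA, since Col2a1, the collagen of cartilage, was at 685 and 556 CPM there and at 2.34 and 3.2 CPM in the myofibroblasts. Col2a1, Col9a3 and Ucma, all cartilage genes, were therefore among the lowest ratios, and the part of cartilage cells in the others was not tested.

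**Figure D2:**
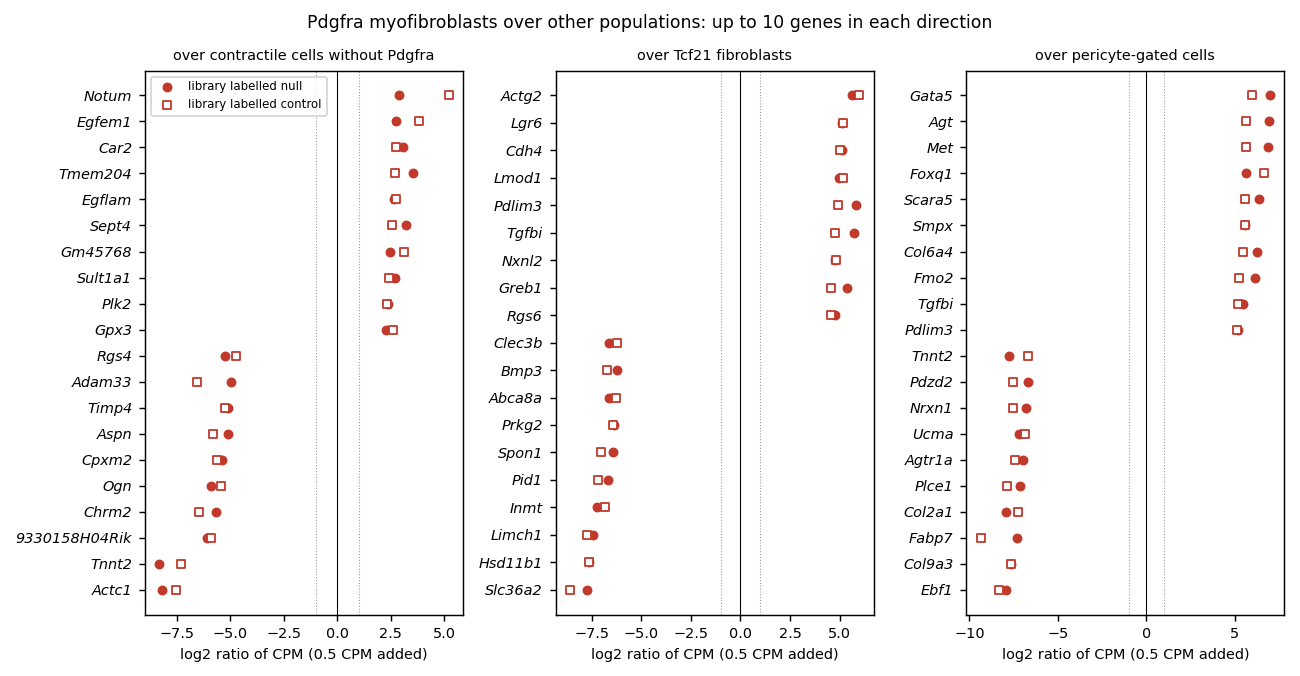
Log2 ratios of CPM, with 0.5 CPM added, of Pdgfra myofibroblasts over contractile cells without Pdgfra (left), Tcf21 fibroblasts (middle) and pericyte-gated cells (right), for the 10 genes with the largest ratio in each direction, of which 9 are drawn as higher in the middle panel. Filled circles are the library labelled null, open squares the library labelled control, and dotted lines mark ratios of 1 and -1. Both libraries lay on the same side for every gene, as the choice of genes required.

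Genes of the contractile apparatus were counted without Acta2 and Tagln, whose levels the rule set. Of 19 such genes compared with contractile cells without Pdgfra, none was higher and 7 were lower, beside 3.63% higher and 3.91% lower over all genes, with median ratios of -0.72 and -0.95. Of 17 compared with Tcf21 fibroblasts, 10 were higher and 1 was lower, beside 10.9% and 7.27% over all genes, with medians of 1.35 and 1.05, and centring ended the calls of Flna and Myl6. Of 17 against pericyte-gated cells, 1 was higher and 2 were lower, near the 11.8% and 7.57% of all genes. Myh11, the smooth muscle myosin heavy chain, was at 654 and 501 CPM in the myofibroblasts, 1314 and 1355 CPM in contractile cells without Pdgfra and 31.2 and 20.8 CPM in Tcf21 fibroblasts. Cnn1, calponin of mature smooth muscle, was at 25 and 7.6 CPM against 273 and 266 CPM, and Des, the muscle intermediate filament desmin, at 122 and 42.4 CPM against 655 and 567 CPM. Both lay far below contractile cells without Pdgfra in each library. Myl9, a regulatory myosin light chain whose promoter is shown above, was at 875 and 693 CPM against 1446 and 1339 CPM there and 106 and 54.8 CPM in Tcf21 fibroblasts. Vcl, vinculin of focal adhesions, was at 79.7 and 78 CPM, below the 171 and 152 CPM of contractile cells without Pdgfra and the 118 and 102 CPM of Tcf21 fibroblasts. Myl6, an essential myosin light chain and the other contractile gene with a CArG box in a promoter, was at 2674 and 2222 CPM against 4055 and 3818 CPM in contractile cells without Pdgfra and 1212 and 1069 CPM in Tcf21 fibroblasts. Of these 3 genes, Myl9 and Myl6 thus stood above the fibroblasts and Vcl below them. Myocd, the cofactor of serum response factor, was at 44.6 and 60.4 CPM in the myofibroblasts, 83.4 and 83.2 CPM in contractile cells without Pdgfra and 2.24 and 2.26 CPM in Tcf21 fibroblasts.

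Elastic fibre genes were compared in the same way. Against Tcf21 fibroblasts 4 of 17 were higher and 4 lower, beside 10.9% and 7.27% of all genes. Against contractile cells without Pdgfra 1 of 17 was higher and 2 were lower, near the 3.63% and 3.91% of all genes. Against pericyte-gated cells 7 of 16 were higher and 2 lower, beside 11.8% and 7.57%, with medians of 0.99 and 0.79 beside 0.16 and 0.11 over all genes, and centring ended the call of Ltbp4. Eln, elastin (chr5:134702593-134747323), was at 5951 CPM (95% Poisson interval 5887 to 6016) and 2888 CPM (2822 to 2956) in the myofibroblasts and at 7153 and 5607 CPM in Tcf21 fibroblasts, so fibroblasts held no less of it. Mfap2, a microfibril protein, was at 1209 and 616 CPM in the myofibroblasts against 583 and 266 CPM in Tcf21 fibroblasts, and Ltbp2, which associates with microfibrils, at 396 and 292 CPM against 121 and 57.2 CPM. Those were higher in the myofibroblasts of both libraries, although centring ended the call of Mfap2 and made Mfap5 a further lower call. Fbln5, which helps elastin onto microfibrils, was at 6.66 and 3.6 CPM against 415 and 376 CPM, Mfap4 at 1163 and 857 CPM against 10599 and 12371 CPM, and Lox, the enzyme that crosslinks elastin, at 312 and 201 CPM against 971 and 656 CPM. The parts of the elastic fibre were thus divided between the populations in the amount of RNA.

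Among collagens and other matrix genes, 3 of 26 were higher, near the 10.9% of all genes, and 6 lower, beside 7.27%. With centring 2 were higher and 7 lower. These counts are against Tcf21 fibroblasts. Mgp, the matrix Gla protein that inhibits calcification, was at 5232 and 7941 CPM in the myofibroblasts and 6533 and 6157 CPM in Tcf21 fibroblasts. Fn1, fibronectin, was at 46.6 and 30.01 CPM against 2164 and 3425 CPM, and Npnt, an integrin ligand, at 3.42 and 5.2 CPM against 320.4 and 384 CPM. Both were far lower in the myofibroblasts. Spon2, a secreted matrix protein, was at 194 and 176 CPM against 22.1 and 8.47 CPM, in the other direction. Mgp, like Aspn, served in the estimate of free RNA.

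Hedgehog genes were given by their roles. The ligand Shh was at 0.72 and 0 CPM, Ihh at 0.18 and 0 CPM and Dhh at 0 in both libraries. Ptch1, the receptor and a target of the signal, was at 238 and 299 CPM in the myofibroblasts, 184 and 226 CPM in contractile cells without Pdgfra, 92.4 and 96.5 CPM in Tcf21 fibroblasts and 29.1 and 25.4 CPM in pericyte-gated cells. Gli1, the target that serves as a readout of the pathway, was at 16.7 and 20.01 CPM, and Smo, the transducer, at 66.2 and 74.8 CPM. Gas1, a co-receptor, was at 76.1 and 128 CPM against 199.8 and 200.1 CPM in contractile cells without Pdgfra, and the co-receptor Cdon at 3.96 and 4.4 CPM against 44.5 and 62.1 CPM. Of 6 genes of the list compared with those cells, only Cdon was lower and none was higher, beside 3.91% and 3.63% of all genes. Of 5 genes of the list compared with Tcf21 fibroblasts, Ptch1 and Hhip were higher and none was lower, beside 10.9% and 7.27% of all genes, and Gli1 stood below the 50 CPM needed for a call.

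Of the WNT list, 6 of 14 genes were higher and 1 was lower than in contractile cells without Pdgfra, beside 3.63% and 3.91% over all genes. Against Tcf21 fibroblasts 9 of 15 were higher and 2 lower, beside 10.9% and 7.27%, and against pericyte-gated cells 12 of 13 were higher and none lower, beside 11.8% and 7.57%, and centring ended the call of Fzd1. Next to Wnt5a, the ligand Wnt11 was at 47.9 and 30.4 CPM, while Wnt2, a ligand of Tcf21 fibroblasts, was at 16.2 and 20.8 CPM against 174 and 252 CPM. The transcription factors Lef1 and Tcf7 were at 77.6 and 85.6 CPM and at 65.5 and 61.6 CPM in the myofibroblasts, against 4.2 and 10.8 CPM and 7.77 and 9.03 CPM in Tcf21 fibroblasts. Of the inhibitors of the pathway, Nkd1 was at 289.9 and 244 CPM against 61 and 46.4 CPM, Wif1, which binds WNT ligands, at 279 and 281 CPM against 33.7 and 18.6 CPM, and Axin2, a feedback inhibitor, at 77.7 and 75.6 CPM against 51 and 58.2 CPM. Axin2 was not called against the fibroblasts but was higher than in contractile cells without Pdgfra, at 28.5 and 23.2 CPM, as were Lef1, Tcf7, Notum, Dkk3 and Wif1. The R-spondins Rspo1, Rspo2 and Rspo3 were at 1.08 and 1.2, at 0 and 0, and at 1.98 and 3.6 CPM.

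FGF genes differed from Tcf21 fibroblasts in both directions. Fgf18 and the feedback inhibitor Spry1 were both higher than in Tcf21 fibroblasts, with Spry1 at 468 and 457 CPM against 85.1 and 52.6 CPM. Fgf10, the ligand that drives branching, was at 0.72 and 2.0 CPM against 76.1 and 104 CPM, and the receptors Fgfr3 and Fgfr4 were likewise low. In all, 3 of 8 FGF genes were higher and 3 lower, beside 10.9% and 7.27% of all genes.

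Of 22 TGF-β and BMP genes, 9 were higher and 1 was lower than in Tcf21 fibroblasts, beside 10.9% and 7.27% of all genes. With centring 7 were higher and 1 was lower, as the calls of Tgfb1 and Tgfbr1 ended. Eng, a TGF-β co-receptor known from endothelium, was at 97 and 108 CPM against 18.7 and 21.5 CPM, and Id2, a BMP target, at 510.1 and 533 CPM against 107 and 164 CPM. Nog, which blocks BMP ligands, was at 37.2 and 33.2 CPM in the myofibroblasts against 1.15 and 1.61 CPM, but did not reach the 50 CPM needed for a call. Bambi, a decoy receptor, the receptors Tgfbr1 and Tgfbr3, the ligand Tgfb1 and the targets Ctgf and Tgfbi were also called higher. Bmp3, a ligand, was the gene that was lower, at 0.72 and 0.40 CPM against 89.96 and 95.8 CPM.

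PDGF ligands were scarce in the myofibroblasts. Pdgfa was at 19.8 and 22.4 CPM against 119 and 61.1 CPM in contractile cells without Pdgfra, and Pdgfc at 8.46 and 13.6 CPM against 53.7 and 87.4 CPM. Pdgfrb, the receptor of pericytes, was at 72.7 and 80.8 CPM against 482 and 565 CPM in pericyte-gated cells. Pdgfa and Pdgfc were thus both higher in the contractile cells gated to lack Pdgfra. Of 3 PDGF genes compared with those cells, leaving out Pdgfra, these 2 were lower in the myofibroblasts and Pdgfrb was higher. Over all genes 3.91% were lower and 3.63% higher, and centring ended the call of Pdgfrb. Notch3 and its target Heyl, active in mural cells, were at 12.1 and 11.6 CPM and at 0.54 and 1.6 CPM, against 295 and 383 CPM and 199.8 and 188 CPM in pericyte-gated cells. Igf1, insulin-like growth factor, was at 1067 and 706 CPM in the myofibroblasts, 952 and 961 CPM in contractile cells without Pdgfra and 143 and 81.6 CPM in Tcf21 fibroblasts, and 1 of 9 IGF genes was higher and 5 were lower than in the fibroblasts, beside 10.9% and 7.27% of all genes.

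Of the transcription factors listed, without Tcf21, 14 of 29 were higher and 2 lower than in Tcf21 fibroblasts, beside 10.9% and 7.27% of all genes. Against contractile cells without Pdgfra 4 of 29 were higher and 1 was lower, beside 3.63% and 3.91%. Foxf1, a mesenchymal factor downstream of Hedgehog, was at 470.0 and 436 CPM in the myofibroblasts, against 316 and 254 CPM in contractile cells without Pdgfra and 43.8 and 53.6 CPM in Tcf21 fibroblasts. Tbx2, Tbx3, Tbx4 and Tbx5, the T-box factors of lung mesenchyme, were at 371 and 399, 311 and 351, 293 and 323 and 365 and 435 CPM. Tbx3, Tbx4 and Tbx5 were more than 1 log2 unit above Tcf21 fibroblasts in both libraries, at ratios of 2.59 and 2.60 for Tbx3, 1.07 and 1.03 for Tbx4 and 2.01 and 1.89 for Tbx5. Centring on the median of all genes ended the call of Tbx4 and made Meis2 a further lower call. Foxf2, Tbx5, Runx1 and Klf2 were the 4 that were higher than in contractile cells without Pdgfra, and Gata6 the 1 that was lower, with the call of Tbx5 ended by centring. Runx1 was at 88.2 and 68.4 CPM against 14.8 and 17.9 CPM in contractile cells without Pdgfra, and Sox11 at 142 and 165 CPM against 11.4 and 21.8 CPM in Tcf21 fibroblasts. Meox2 was lower than in the fibroblasts, at 1.62 and 1.2 CPM against 151 and 196 CPM.

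Among vascular signals, the endothelin receptor Ednrb was at 1783 and 1901 CPM in the myofibroblasts. The list showed Ednrb, Sema3c and Angpt2 higher than in Tcf21 fibroblasts and Vegfa, Vegfd, Angpt1, Slit2 and Slit3 lower, of 11 compared, beside 10.9% and 7.27% of all genes. Sema3c, a guidance signal, was at 149.9 and 142 CPM against 9.89 and 7.02 CPM, and Angpt1, which acts on the endothelial receptor Tek, at 5.22 and 7.2 CPM against 122 and 126 CPM. None of 7 was called against contractile cells without Pdgfra. Hypoxia and glycolysis genes gave 0 calls of 14 against those cells, and both counts are near the 3.63% and 3.91% of all genes. Against Tcf21 fibroblasts 2 of 17 were higher and 2 lower, near the 10.9% and 7.27% of all genes, and 3 were lower with centring.

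Genes of the immediate-early response, which dissociation of tissue is known to raise, were abundant. Against Tcf21 fibroblasts 2 of 17 were higher and none lower, near the 10.9% and 7.27% of all genes. Against contractile cells without Pdgfra 4 of 17 were higher and none lower, beside 3.63% and 3.91% of all genes, with median ratios of 0.81 and 0.94 beside 0.04 and 0.05 over all genes. Egr1, a transcription factor of this response, was at 1208 and 1389 CPM against 544 and 436 CPM, and Socs3 at 835 and 805 CPM against 305 and 173 CPM. Of 9 glucocorticoid response genes, 4 were higher and 1 was lower than in Tcf21 fibroblasts, beside 10.9% and 7.27% over all genes, and 3 and 2 with centring. Tsc22d3, induced by glucocorticoids, was at 628 and 545 CPM against 163 and 167 CPM, and Errfi1 at 194 and 257 CPM against 31.5 and 46.1 CPM. The part of handling in these levels was not tested.

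The cells varied among themselves in the listed markers. After thinning to 3000 UMIs, Hhip was found in 91.6% (89.2 to 93.7) and 92.7% (89.3 to 95.3) of the members, beside 6.42% and 6.70% of endothelial-gated cells, a cell type that should lack the gene. Fgf18 was found in 68.6% (64.8 to 72.1) and 55.5% (49.9 to 60.9) of the members and in 1.33% and 1.2% of endothelial-gated cells. Wnt5a was found in 72.4% (68.8 to 75.9) and 60.1% (54.5 to 65.4), beside 3.30% and 2.23%. Lgr6 was found in 24.1% (20.9 to 27.6) and 18.6% (14.5 to 23.2), beside 0.682% and 0.401%. All 4 shares lay far above the endothelial background at equal depth. In Tcf21 fibroblasts the thinned shares were 24.3% and 45.6% for Hhip and 18.1% and 24.2% for Wnt5a. They were 4.06% and 1.08% for Fgf18 and 0.312% and 0.190% for Lgr6 in these fibroblasts. In contractile cells without Pdgfra the thinned shares were 84.6% and 85.1% for Hhip and 42.3% and 35.5% for Fgf18. They were 49.0% and 34.7% for Wnt5a and 31.7% and 32.2% for Lgr6 there. The Lgr6 share was thus higher in those cells than in the members, and the Hhip share nearly as high. In the library labelled null the Lgr6 interval of those cells, 22.9 to 41.6, overlapped that of the members. In the library labelled control it was 24.0 to 41.3 and did not overlap. Without thinning the Lgr6 shares of the members were 47.1% and 35.8%. Median UMIs per cell at the thinned depth were 4 and 5 for Hhip, 5 and 3 for Tgfbi, 17 and 7 for Eln and 14 and 23 for Mgp. In the libraries labelled null and control, 1 and 2 members had too few UMIs to be thinned.

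Few members were cycling. At least 3 UMIs over 20 cell cycle genes were found in 16 of 646 thinned members of the library labelled null, which is 2.48% (1.42 to 3.99), and in 2 of 328 of the library labelled control, which is 0.610% (0.0739 to 2.19). The intervals overlap. Without thinning the shares were 8.04% and 6.06%. In endothelial-gated cells the thinned shares were 15.3% and 14.4%, and those of pericyte-gated and immune-gated cells also lay above the members in both libraries. Tcf21 fibroblasts had thinned shares of 1.82% and 2.15%, and contractile cells without Pdgfra 1.92% and 1.65%. Their intervals overlapped those of the members in each library, so a low share was not particular to the members. The cell cycle genes summed to 312 and 84.4 CPM in the members.

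The members were also split by Hhip after its values had been seen, as a description of how they vary. At the thinned depth, 301 and 188 members held at least 5 Hhip UMIs, 225 and 90 held between, and 120 and 50 held at most 1. Cells of low Hhip were deeper, with medians of 9425 and 8027 UMIs against 7359 and 6740.5 in cells of high Hhip. Of 1920 genes with at least 100 CPM in cells of high or low Hhip of either library, 25 were higher (1.3%) and 14 lower (0.729%) with Hhip in both libraries. Some called genes, among them Lgr6, Gas1, Ccl7 and Cd34, reached 100 CPM only on the side where they were higher. Rgs5, a regulator of G-protein signalling, was at 478 and 314 CPM in the cells of high Hhip and 88.7 and 73.3 CPM in those of low Hhip. Lgr6 was at 134 and 103 CPM in the cells of high Hhip and 37.1 and 18.9 CPM in those of low Hhip, and Wif1 at 365 and 333 CPM in the cells of high Hhip and 152 and 151 CPM in those of low Hhip. Gas1, Cdh4, Ltbp1, Sema3c and Igfbp3 were also higher. Of 9 WNT genes compared, only Lgr6 and Wif1 were called, both higher, and Notum, Fzd1 and Dkk3 had ratios below 0 in both libraries. Pdgfra itself was at 958 and 1076 CPM in the cells of high Hhip and 998 and 1101 CPM in those of low Hhip. Htra1, a secreted protease, was at 556 and 388 CPM in the cells of high Hhip and 1469.7 and 957 CPM in those of low Hhip. Ccl7, a chemokine, was at 1.26 and 2.2 CPM in the cells of high Hhip and 31.4 and 121 CPM in those of low Hhip. Macrophage genes were among the 14, as C1qa, C1qb, C1qc, Pf4 and Fcer1g were lower with Hhip, and 1 cell of high and 1 of low Hhip in each library held at least 10 C1q UMIs. Ramp2, the only endothelial marker compared, Eng and Cd34, genes also known from endothelium, were lower with Hhip too, with Cd34 at 16.4 and 15.4 CPM in the cells of high Hhip and 101 and 56.7 CPM in those of low Hhip. The part of macrophage or endothelial RNA in the other genes was not tested. All genes of this split were chosen with their values known.

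**Figure D3:**
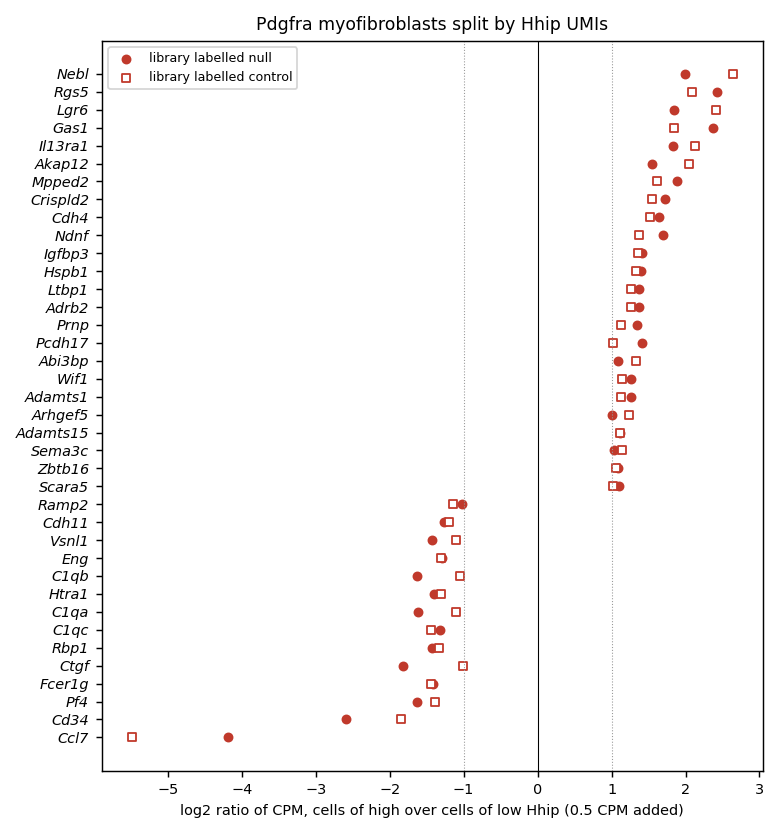
Log2 ratios of CPM, with 0.5 CPM added, of members with at least 5 Hhip UMIs over members with at most 1, at 3000 UMIs per cell, for 38 of the 39 genes that passed 1 in size in both libraries. Filled circles are the library labelled null and open squares the library labelled control. Nebl, Rgs5, Lgr6 and Gas1 lay at the upper end and Ccl7 at the lower end.

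The comparison of the libraries asks what differs in these cells between the labelled genotypes. Of 3458 genes with at least 50 CPM in 1 library, 22 were at least 1 log2 unit higher (0.636%) and 21 at least 1 lower (0.607%) in the library labelled null, and the median ratio was -0.01. In the SoupX-adjusted sums the split was 112 higher (3.15%) and 43 lower (1.21%) of 3560, so the balance of directions rested on the adjustment. Raw and adjusted values together called 18 higher (0.521%) and 19 lower (0.549%). For comparison, the raw counts called 34 and 31 of 3438 genes in contractile cells without Pdgfra (0.989% and 0.902%), 43 and 15 of 2932 in Tcf21 fibroblasts (1.47% and 0.512%), 11 and 12 of 3075 in pericyte-gated cells (0.358% and 0.39%), 9 and 5 of 3353 in endothelial-gated cells (0.268% and 0.149%), 30 and 4 of 3169 in immune-gated cells (0.947% and 0.126%), and 13 and 3 of 3327 in all kept cells other than the members (0.391% and 0.0902%). These populations differ in the number of cells and so in counting error.

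Igfbp3, which binds insulin-like growth factors (chr11:7206086-7213923), was at 56.3 CPM (95% Poisson interval 50.3 to 62.9) and 369 CPM (345 to 394). Its log2 ratio, with the interval from counting error, was -2.70 (-2.90 to -2.53), the largest in the lower direction among the genes tested. It was also lower in contractile cells without Pdgfra, at -2.12, and stood at 58.2 and 35.1 CPM in Tcf21 fibroblasts and 13.1 and 14.3 CPM in pericyte-gated cells. Igfbp7, a related secreted protein, was at 116 and 318 CPM with a ratio of -1.45 (-1.61 to -1.30), beside -0.31 in contractile cells without Pdgfra and 0.59 in Tcf21 fibroblasts. These were 2 of 6 IGF genes tested, beside 0.607% of all genes called lower, while Igf1 was at 1067 and 706 CPM with a ratio of 0.59. The difference between populations in these ratios was not tested.

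Stc1, at 22.7 and 64.4 CPM, had a ratio of -1.49 (-1.85 to -1.16), and Plac8, at 10.1 and 50.01 CPM, one of -2.26 (-2.79 to -1.85). Hk2, hexokinase of glycolysis, was at 25.9 and 60.8 CPM with a ratio of -1.22 (-1.57 to -0.89), the only call among 13 hypoxia and glycolysis genes tested, beside 0.607% of all genes called lower. Nt5e, which makes extracellular adenosine, was at 40.7 and 98 CPM, and Maf, a transcription factor, at 38.1 and 88 CPM. In contractile cells without Pdgfra, Stc1 was at 9.14 and 9.48 CPM and Hk2 at 28.5 and 30.5 CPM, under the 50 CPM needed for a call. Retreg1, Negr1 and Podn were lower as well, at ratios of -1.44, -1.21 and -1.14. Gpx3, an extracellular glutathione peroxidase, was at 141 and 305 CPM and Apoe, apolipoprotein E, at 901 and 1850 CPM, with ratios of -1.11 and -1.04. Apoe kept its direction but missed 1 in the adjusted values, at -0.70.

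C1qb and C1qc, complement genes of macrophages, were at 22.7 and 54.4 CPM and at 23.4 and 54 CPM in the members. Those UMIs came from few cells, since 39 and 9 members held any C1q UMI and 3 and 2 held at least 10. Without these and the members rich in haemoglobin, 7 and 3 cells in all, C1qb was at 2.21 and 0.823 CPM and C1qc at 2.02 and 2.47 CPM, and C1qa, at 32.6 and 70.02 CPM in all members, was at 2.39 and 2.88 CPM. Most of the level of all 3 genes lay in the few cells left out. The direction of C1qb was then reversed. C1qb and C1qc were also reversed with the rule on raw counts, at 3.39 and 2.71, with at least 20 of Acta2, at 4.20 and 2.90, and without cells over the 95th percentile of UMIs, at 2.40 and 1.58.

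Of 20 collagen and matrix genes tested, 2 were higher in the library labelled null, Col15a1 and Postn, and none was lower, beside 0.636% and 0.607% of all genes. Postn kept its direction in the adjusted values but was at 45.3 and 4.09 CPM there, under the 50 CPM needed for a call. The median ratio of the collagen and matrix list was -0.00 in raw and -0.20 in adjusted values, beside -0.01 and -0.09 over all genes. Eln, at 5951 and 2888 CPM, had a ratio of 1.04 (1.01 to 1.08). It was 1.25 in contractile cells without Pdgfra, and 0.35 and 0.35 in Tcf21 fibroblasts and pericyte-gated cells, and 0.61 in all kept cells other than the members. Col15a1, a collagen of basement membranes (chr4:47208161-47313167), was at 69.1 CPM (95% Poisson interval 62.4 to 76.4) and 16.8 CPM (12.1 to 22.7) with a ratio of 2.01 (1.58 to 2.54), beside 42.3 and 2.11 CPM in contractile cells without Pdgfra and 2.42 and 1.61 CPM in Tcf21 fibroblasts, both under 50 CPM. Serpine2, a protease inhibitor of the matrix, was at 530.1 and 208 CPM with a ratio of 1.35 (1.22 to 1.49). Its ratio was 0.82 in contractile cells without Pdgfra, 0.05 in Tcf21 fibroblasts and 0.10 in pericyte-gated cells. Eln was the only call among 14 elastic fibre genes tested, beside 0.636% of all genes called higher. Mfap2, at 1209 and 616 CPM and a ratio of 0.97, and Tgfbi, at 0.86, fell just short of 1. Mgp stood on the other side, at 5232 and 7941 CPM and a ratio of -0.60.

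Des was at 122 and 42.4 CPM with a ratio of 1.51 (1.23 to 1.83), and was the only call among 19 contractile genes, beside 0.636% of all genes called higher. That count and the median that follows include Acta2 and Tagln, whose levels the rule set. The median ratio of the contractile list was 0.27 in raw and 0.00 in adjusted values, beside -0.01 and -0.09 over all genes. With the rule applied to raw counts, which admits other cells, the ratio of Des was 0.83. In contractile cells without Pdgfra it was 0.21. Fhl2, a cofactor of serum response factor whose promoter is shown above, was at 108 and 38.8 CPM with a ratio of 1.46 (1.16 to 1.80), and Scx, a transcription factor of tendon and other force-bearing tissue, at 62.1 and 15.2 CPM with 1.99 (1.54 to 2.55). In contractile cells without Pdgfra Fhl2 was at 73.1 and 45.3 CPM with a ratio of 0.68. Its ratio was 0.88 in Tcf21 fibroblasts, 0.72 in pericyte-gated cells and 1.00 in all kept cells other than the members, each under 50 CPM. Fhl2 was thus shifted in the same direction in each of these populations. In endothelial-gated cells Fhl2 was at 4.23 and 1.49 CPM and Scx at 4.6 and 1.24 CPM, far below the 50 CPM needed for a call. Ccdc141, Cryab, Cdc7, Kdelr3 and Nedd9 were higher at ratios of 1.53, 1.43, 1.28, 1.16 and 1.07. In the adjusted values Cryab was at 53.7 and 0.418 CPM with a ratio of 5.88, and Stmn1 at 129.9 and 0.456 CPM with a ratio of 7.09. The size of these 2 ratios thus rested on the adjustment. In raw counts Stmn1, a microtubule regulator, was at 173 and 78.4 CPM with a ratio of 1.13 that fell to 0.45 without cycling cells, and 30.4% of its transcript-end stretches are shared with Gm11223. Postn, a matrix protein and one of the genes from which free RNA was estimated, was at 51.5 and 14.8 CPM with a ratio of 1.76.

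Gm13305 was at 64.2 and 3.6 CPM, with a ratio of 3.98 (3.22 to 5.30), and stood at 61.7 and 1.05 CPM in contractile cells without Pdgfra and 56.5 and 0.242 CPM in Tcf21 fibroblasts. In its transcripts' ends 61.2% of the stretches searched also occur in Il11ra1 or Il11ra2, so its reads cannot be placed with certainty. The remaining calls were Hbb-bs, Hbb-bt, Hba-a1, Xist, Hmcn1, Opcml, Qpct and Fstl3 in the higher direction and Ddx3y, Eif2s3y, Dlk1, Penk, Abcd2, C1qa and Kcnj8 in the lower. Hmcn1, Opcml, Qpct, Fstl3, Dlk1, Penk, Abcd2, Kcnj8 and Apoe fall outside the rule for named genes and were chosen with their values known.

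**Figure D4:**
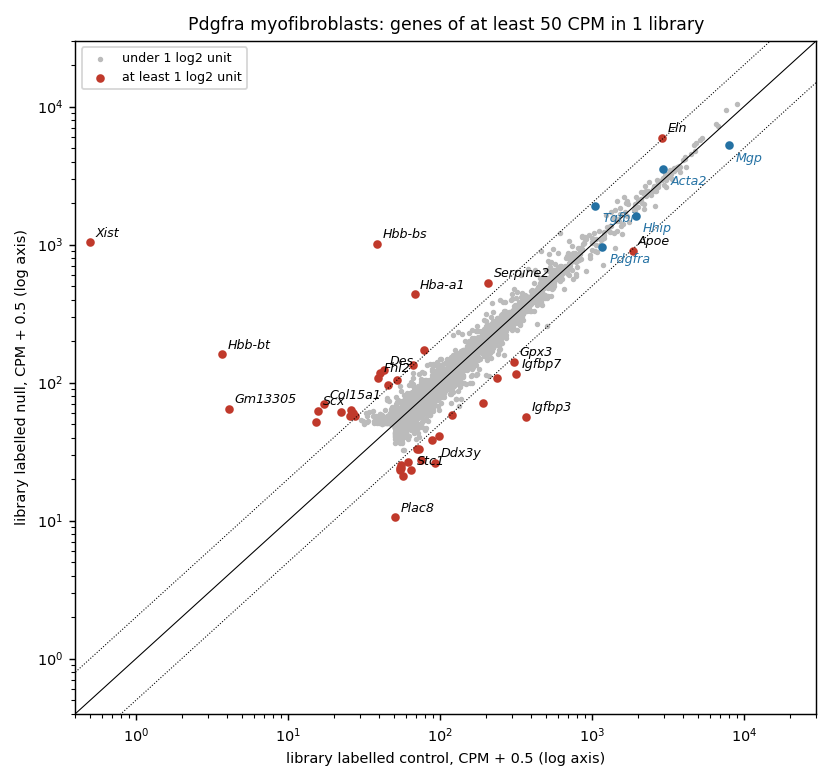
Levels of the 3458 tested genes in the members of both libraries, in CPM with 0.5 added on log axes, with dotted lines at 1 log2 unit above and below equality. Red points are the 43 genes beyond the lines, and blue points are 5 markers named in the text that lay within them, among them Hhip and Tgfbi.

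**Figure D5:**
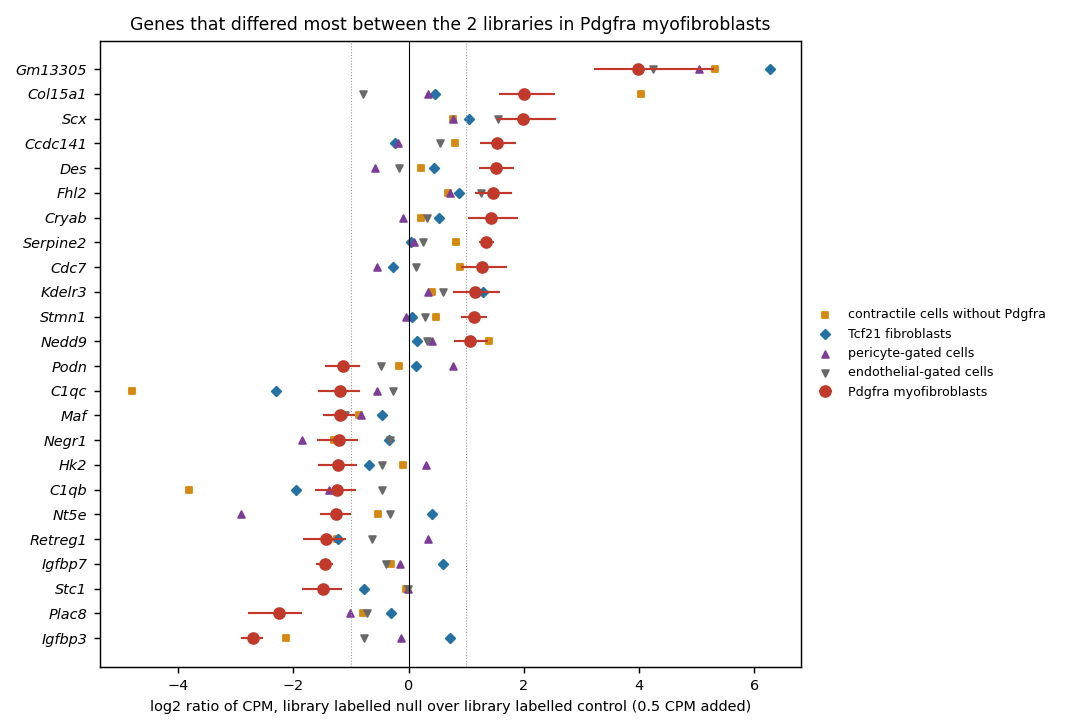
Log2 ratios of CPM, library labelled null over library labelled control, for the 24 genes with the largest ratios in the members. Large red circles are Pdgfra myofibroblasts with 95% intervals for counting error, and small symbols are 4 other populations without intervals. The other populations are drawn also where a gene was under 50 CPM. Igfbp3 was shifted in the same direction in contractile cells without Pdgfra, while Des and Igfbp7 lay nearer 0 there.

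Apart from the IGF list, the signalling lists held no called gene between the libraries, where 0.636% of all genes were called higher and 0.607% lower. Lists of this size would hold few or no calls at that share. Of the genes tested, 0 of 2 PDGF, 0 of 5 Hedgehog, 0 of 5 FGF, 0 of 13 WNT, 0 of 21 TGF-β and BMP, 0 of 7 vascular, 0 of 26 transcription factor, 0 of 17 immediate-early and 0 of 8 glucocorticoid genes reached 1 in size. The median ratios in raw and adjusted values were -0.27 and -0.67 for Hedgehog, 0.09 and -0.18 for WNT, 0.02 and -0.05 for TGF-β and BMP, and -0.12 and -0.42 for transcription factors, beside -0.01 and -0.09 over all genes. The Hedgehog target Ptch1 was at 238 and 299 CPM with a ratio of -0.33, and Hhip at 1608 and 1943 CPM with -0.27. Wnt5a was at 477 and 308 CPM with 0.63, and Fgf18 at 439.8 and 296 CPM with 0.57. Enpp2 was at 941 and 1410.0 CPM with -0.58. None of these 5 genes reached 1 in size.

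The receptors of CXCL12 were near the floor. Cxcr4 was at 2.52 and 2.0 CPM and Ackr3 at 0.36 and 0.40 CPM in the members. Cxcl12 itself was found in 8.67% (6.61 to 11.1) of thinned members of the library labelled null and in 0 of 328 of the library labelled control, which allows a share of cells with a UMI of up to 0.915%. Without thinning, 1 of 330 held a UMI there. In the library labelled null the share was 31.7% in endothelial-gated cells and 2.59% in immune-gated cells, at median depths of 8655 and 16189.5 UMIs before thinning, and 8.68% in Tcf21 fibroblasts. It was 23.8% (16.5 to 32.3) in pericyte-gated cells and 12.5% (6.83 to 20.4) in contractile cells without Pdgfra. The share in the members lay above that in immune cells and near that in Tcf21 fibroblasts. It lay below those in endothelium and pericyte-gated cells, and its interval overlapped that of contractile cells without Pdgfra. After SoupX, Cxcl12 was at 4.59 and 0 CPM in the members.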

How the data were processed

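RNA of single cells from mouse lungs at E18.5 was measured in 2 whole-lung libraries by 10x 3′ chemistry. The authors made the deposited UMI counts with Cell Ranger 3.1 on mm10, and also deposited expected counts, made with SoupX, from which the free RNA estimated from 14 genes had been subtracted. Their processing notes name Seurat 3.2.2. The rule was applied to the expected counts, and levels were the summed raw counts of the members in CPM per library. Intervals were exact Poisson or Clopper-Pearson 95% intervals and cover counting error only, since PCR copies were collapsed by UMI but cells and lungs were not replicated. With 1 library per label no test was made. Genes with at least 50 CPM were compared, and a log2 ratio of at least 1 in size, after adding 0.5 CPM, was called. Each whole-lung library was gated in the same way, and the 4 sorted libraries of the series entered no comparison beyond their barcodes. No doublet caller was run. The gate excludes some markers of other types, but a few members with macrophage or haemoglobin RNA passed it. Leaving out cells over the 95th percentile of UMIs was an alternative. Shares of cells were taken after each cell had been thinned to 3000 UMIs. The members and the gene lists were chosen with earlier results of these data known. Named genes were all list genes, the 12 most extreme ratios per direction between libraries among genes called in raw and adjusted sums, and the 10 most extreme per direction against each population. Genes of haemoglobin, mitochondria and ribosomal proteins, Xist, Tsix, Y-linked genes and the genes of the rule were not ranked, and a few genes within the rule are not reported here. The split by Hhip, and the removal of members rich in haemoglobin or C1q RNA, were chosen after seeing the data. Other alternatives changed the limits of the rule, the sums, the scaling, the thinning, the 0.5 CPM and the 50 CPM, or left out cycling members. Scripts were tested on simulated data. Gene positions are from GENCODE for GRCm38, and promoters from RefSeq for GRCm38.p6. Python 3.11.15 was used with numpy 2.4.6, scipy 1.17.1, pandas 2.3.3 and matplotlib 3.10.9.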

Additional observations from a re-analysis of the deposited data

How the results depend on the processing

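Each value was recomputed with other limits, sums and scalings. Of the alternative values, 247 of 294 for counts and shares and 1449 of 1472 for single genes counted as unmoved. These moved by less than counting error or, for counts of genes and of members, by less than 1.5 times. With the rule on raw counts the share of members in the library labelled null was 5.79%. With at least 20 of Acta2 there were 368 members (4.06%) and 123 (1.65%), and Lgr6 was found in 20.7% and 24.4% of them, so the order of the libraries for Lgr6 turned. With at least 5 of Acta2 the share was 9.44% in the library labelled null, and 504 members (6.77%) in the library labelled control. With at least 2 of Pdgfra the share in the library labelled null was 6.54%. With the rule on raw counts thinned to 3000 UMIs there were 253 members (2.81%) and 113 (1.39%). The log2 ratios of C1qb and C1qc reversed to 3.39 and 2.71 with the rule on raw counts, to 4.20 and 2.90 with at least 20 of Acta2, and to 2.40 and 1.58 without cells over the 95th percentile of UMIs. That of C1qb reversed to 1.03 without members rich in haemoglobin or C1q RNA, an alternative chosen after seeing the data. SoupX-adjusted sums gave 112 genes higher and 43 lower in the library labelled null, 218 higher than in contractile cells without Pdgfra and 632 higher than in Tcf21 fibroblasts. With no minimum beyond 1 UMI, 817 genes were higher and 552 lower between libraries, 702 and 713 against contractile cells without Pdgfra, 1340 and 818 against Tcf21 fibroblasts, and 1531 and 1137 against pericyte-gated cells, as more genes of few UMIs entered. Thinning to 2000 UMIs gave shares in the library labelled null of 85.6% for Hhip, 52.2% for Fgf18, 59.9% for Wnt5a, 17.2% for Lgr6 and 4.49% for Cxcl12, and in the library labelled control of 88.2%, 39.7%, 42.7% and 11.5% for the first 4. Without thinning they were 97.8%, 90.1%, 94.1%, 47.1% and 18.7%, with 8.04% cycling, and 98.5%, 78.2%, 82.7% and 35.8%, with 6.06% cycling. Apart from the construction of these alternatives, the cause was not tested. No paired analysis was possible because there is only 1 sample per genotype. Shares and levels depend on depth and on the SoupX adjustment, and each genotype had 1 library, so the spread between animals is unknown.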
